A study of Mus musculus with 6 samples.

Results

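Calcium transport genes of enamel formation were followed in the marrow monocytes of 2 skeletal sites. The group held 10 of the 57010 genes in the count table, chosen by name: the calcium buffers and transporters known from ameloblasts, the enamel-forming cells (Calb1, S100g and Slc24a4), and 7 genes of calcium entry and calcium pumping (Trpm7, Stim1, Stim2, Orai1, Orai2, Atp2b1 and Atp2b4). Bulk RNA was sequenced in 6 libraries from mice 1 year of age (C57BL/6 in the labels and C57Bl/6J in the methods), 3 from the mandible (S16, S19 and S23, mandibular-derived monocytes) and 3 from the femur (S13, S15 and S18, femur-derived monocytes). Monocytes were enriched from total marrow by negative selection, in which labelled cells of other types were held on a magnetic column and the flow through was kept, and neither the labels nor the methods name a treatment or genetic change in either group. The methods name mice of both sexes. The labels do not tie libraries to animals, so the p-values measure the spread between these libraries, which may in part be technical.

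Mature enamel is almost pure mineral, and the ameloblasts that lay it down move large amounts of calcium from the blood side to the enamel side. Calcium enters the cell when the endoplasmic reticulum is emptied: STIM proteins sense the empty store and open ORAI pores in the plasma membrane. Calbindins bind calcium in the cytosol, and calcium leaves through sodium-calcium exchangers, among them the potassium-dependent exchanger encoded by Slc24a4, and through the plasma membrane calcium pumps of the Atp2b family. The entry and pump genes are used by most cell types, immune cells included, while Calb1, S100g and Slc24a4 are restricted to fewer tissues.

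Calb1 and Slc24a4 rose in the mandible, S100g had no read in any library, and none of the 7 entry and pump genes passed the test in either direction. Of the 10 genes, 9 passed the filter on low counts and 2 were called higher in the mandible by the quasi-likelihood test of edgeR, which asked for a fold change of 2 or more together with a Benjamini-Hochberg adjusted p under 0.05. Among all 18114 tested genes, 3.88% were called higher and 1.3% lower. Calb1 went from 4 reads in all 3 femur libraries together to 10490 reads in the 3 mandible libraries, and Slc24a4 from 7 to 485 reads. In bulk RNA, fewer cells of a type and less RNA per cell cannot be told apart. Expression is given below as counts per 1000000 (CPM) scaled by TMM, a factor per library that aligns most genes between libraries.

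The libraries held 15718782 to 25371474 counts on genes. Femur library S15 stood apart in the number of genes with at least 1 count, 40494 against 17481 to 23513 in the other 5 libraries, and 13454 genes had a count in S15 alone, with a median of 5 counts each. The whole femur signal of Calb1 (4 counts) and of Slc24a4 (7 counts) came from S15, so both results are also given without it. Mandible library S23 differed from the other 5 in the sex-linked genes, with 25189 counts of Xist against 0 to 12, and 0 counts of Ddx3y against 840 to 1581. No femur library showed this pattern, so it was not balanced between the sites. With S23 left out, Calb1 and Slc24a4 were still the 2 genes called. In the edgeR fit of all libraries, 2975 of the 18114 tested genes had an unadjusted p under 0.05. Of 8 monocyte markers none was called (edgeR, with 1 at an unadjusted p under 0.05, and none by DESeq2 or limma-voom). Their summed level was 6203 to 12457 CPM in femur libraries against 5673 to 9735 CPM in mandible libraries. Most of this sum was Lyz2 (4630 to 10579 against 4620 to 7816 CPM), so it says little about the other markers. Csf1r was at 157 to 306 CPM in femur libraries against 275 to 450 CPM in mandible libraries, and Ccr2 at 409 to 793 against 369 to 849 CPM. The share of monocytes in each library was not measured.

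The promoters of 3 genes are printed as examples of the 3 outcomes, namely Slc24a4, which rose, S100g, which had no read, and Stim1, which did not pass the test. Each runs 5′ to 3′ on the gene's strand from 250 bases before to 50 bases after the RefSeq start (GRCm38.p6), and the capitals mark each CG dinucleotide. They lie at chr12:102128477-102128776 on the plus strand (Slc24a4), chrX:162964550-162964849 on the minus strand (S100g) and chr7:102267569-102267868 on the plus strand (Stim1).
Slc24a4: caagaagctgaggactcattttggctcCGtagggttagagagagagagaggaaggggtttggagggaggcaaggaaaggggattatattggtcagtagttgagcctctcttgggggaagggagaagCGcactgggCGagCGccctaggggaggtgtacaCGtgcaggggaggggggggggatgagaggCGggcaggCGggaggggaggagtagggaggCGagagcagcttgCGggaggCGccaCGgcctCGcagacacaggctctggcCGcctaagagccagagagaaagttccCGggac
S100g: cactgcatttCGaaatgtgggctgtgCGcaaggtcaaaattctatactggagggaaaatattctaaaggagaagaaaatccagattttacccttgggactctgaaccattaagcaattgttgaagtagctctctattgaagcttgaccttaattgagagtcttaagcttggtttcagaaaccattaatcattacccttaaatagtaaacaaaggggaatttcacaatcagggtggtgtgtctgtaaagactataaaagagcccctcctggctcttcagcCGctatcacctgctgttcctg
Stim1: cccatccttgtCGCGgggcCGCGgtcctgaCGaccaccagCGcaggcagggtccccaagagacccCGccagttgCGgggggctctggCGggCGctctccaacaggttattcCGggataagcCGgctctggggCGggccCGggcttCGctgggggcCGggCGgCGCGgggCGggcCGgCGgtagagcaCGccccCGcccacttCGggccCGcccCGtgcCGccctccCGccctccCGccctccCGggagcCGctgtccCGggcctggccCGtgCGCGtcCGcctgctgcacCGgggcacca
The Slc24a4 promoter held 14 CG dinucleotides, that of S100g 3 and that of Stim1 38, against a median of 7 over the 32851 promoters of this length. Of the 10 genes, 9 had an entry among the RefSeq promoters, with 10 windows in all, and Calb1 had none. The promoters of Trpm7, Stim2, Orai1, Orai2 and Atp2b1 had 24 to 54. The only Atp2b4 window had 4, but it lies at chr1:133753698-133753997, inside the gene. The annotated 5′ end of Atp2b4 is at 133801041 on the minus strand and was not covered. The motif TATAAA, searched on both strands, was found in 1 of the 10 promoters, that of S100g, and in 13.6% of all promoters. In S100g it begins at base 251 of the window, which is the annotated start itself and not a place upstream of it. Of all promoters, 94.6% held at least 1 CG. These counts describe the sequences and were not tested against expression.

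Calb1 (ENSMUSG00000028222) encodes the larger calbindin, a cytosolic calcium buffer of EF-hand type that is abundant in ameloblasts and in some neurons and kidney cells. It lies on chromosome 4 from 15881264 to 15908064 of GRCm38 on the plus strand, and no other annotated gene overlaps it. Its level was 112 CPM in S16, 173 CPM in S19 and 264 CPM in S23. In the femur it was 0.184 CPM in S15, while S13 and S18 had 0 counts, where up to 3 counts per library could have been missed (0.166 CPM in S13 and 0.133 CPM in S18). Every mandible library thus lay above every femur library, and S23 held the highest level although it was the shallowest library. The mean was 183 ± 76.1 CPM in mandibular-derived and 0.0614 ± 0.106 CPM in femur-derived monocytes (SD, n = 3 in each group), which the edgeR fit put at 11.35 on the log2 scale with a standard error of 0.73 (Benjamini-Hochberg adjusted p = 1.3e-05). From the pooled counts the ratio was 2798, with a 95% exact interval of 1092 to 10270 that covers counting error alone. Without S15 the femur had no Calb1 read at all, and against 3 counts per library in S13 and S18 alone the mandible mean was at least 1226-fold and the lowest mandible library at least 754-fold higher. The call held in all 15 alternatives in which the gene could be tested, with a Benjamini-Hochberg adjusted p of at most 0.0047 (limma-voom).

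Slc24a4 (ENSMUSG00000041771), whose exchanger trades sodium for calcium and potassium and whose loss disturbs enamel maturation, lies on chromosome 12 from 102128733 to 102267091 on the plus strand. Its level was 8.36 CPM in S16, 7.41 CPM in S19 and 9.27 CPM in S23, and 0.323 CPM in S15. Libraries S13 and S18 had no read, so the groups did not overlap, and the 3 mandible libraries lay close together. The mean was 8.34 ± 0.930 CPM in the mandible and 0.108 ± 0.186 CPM in the femur (SD, n = 3), which the edgeR fit put at 6.17 on the log2 scale with a standard error of 1.24 (Benjamini-Hochberg adjusted p = 0.014). The pooled ratio was 73.9, with a 95% exact interval of 35.6 to 185 for counting error. Without S15 the femur had no Slc24a4 read, and against 3 counts per library in S13 and S18 alone the mandible mean was at least 55.9-fold and the lowest mandible library at least 49.7-fold higher. The call was lost without mandible library S19 (edgeR, Benjamini-Hochberg adjusted p = 0.077), and with each of the 6 libraries left out in turn the adjusted p ran from 0.0013 to 0.077. The annotated antisense gene Gm16339 within Slc24a4 shares no exon base with it and had no read in the mandible.

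S100g (ENSMUSG00000040808) encodes the small calbindin, named for its role in calcium uptake across the gut and also found in ameloblasts. It lies on chromosome X from 162961992 to 162964599 on the minus strand. It had 0 counts in all 6 libraries, which allows up to 0.133 to 0.172 CPM per library, and it was not tested. At this depth S100g was therefore not detectable in either group, while the other calbindin gene reached at least 112 CPM in each mandible library. With 480 bases of exon S100g is the shortest of the 10 genes, which are otherwise 2295 to 15218 bases long, and a short gene gathers fewer reads at the same number of transcripts.

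**Figure D1:**
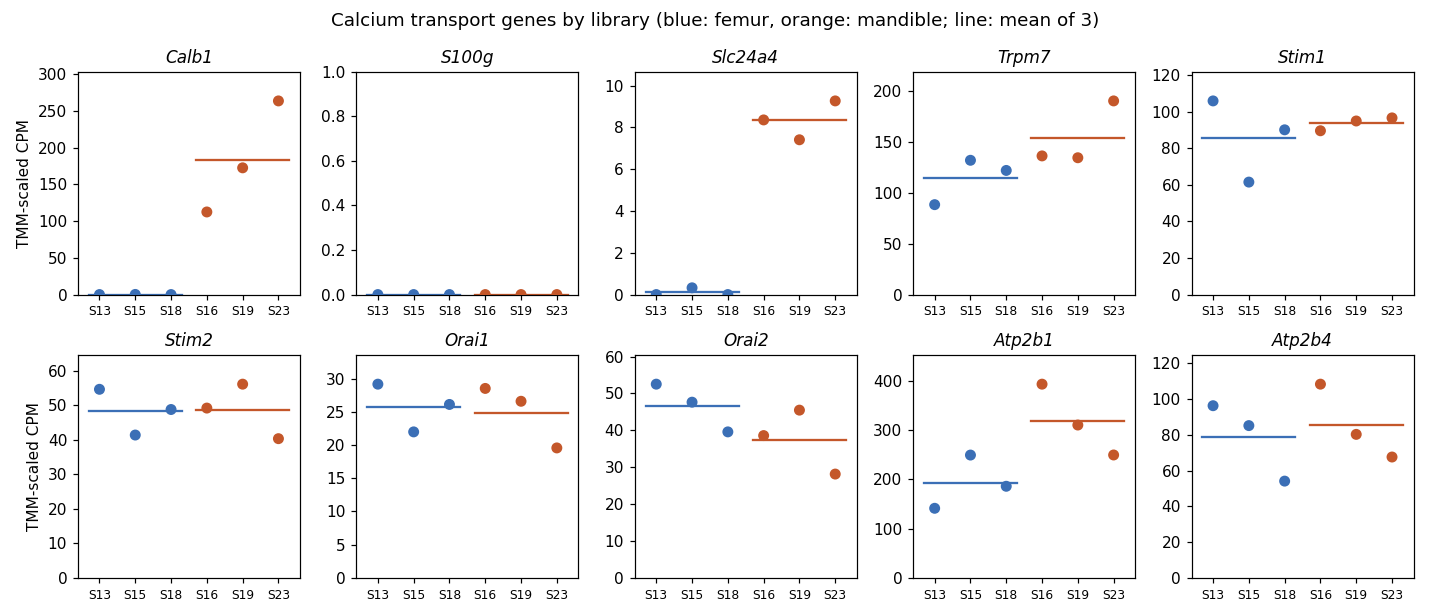
Level of each of the 10 genes in TMM-scaled CPM (vertical axis, from 0) in each library (horizontal axis), with the mean of each group as a line. Calb1 and Slc24a4 are at or near 0 in the femur and at 112 to 264 CPM and 7.41 to 9.27 CPM in the mandible, S100g is at 0 throughout, and the groups overlap for the others except Trpm7 and Atp2b1.

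Trpm7 (ENSMUSG00000027365), a channel for magnesium and calcium joined to a kinase, lies on chromosome 2 from 126791565 to 126876230 on the minus strand. Its level was 88.3 CPM in S13, 132 CPM in S15 and 122 CPM in S18, and 136 CPM in S16, 134 CPM in S19 and 190 CPM in S23. All mandible libraries lay above all femur libraries, but S16 and S19 stood close to S15. The log2 fold change was 0.43 with a 95% interval of -0.17 to 1.03 and did not pass the test (edgeR, Benjamini-Hochberg adjusted p = 0.52), and it turned to -0.27 when the trend with gene length was removed. Of the 9 tested genes, 4 (Calb1, Slc24a4, Trpm7 and Atp2b1) had every mandible library above every femur library, as did 12.7% of all tested genes, and none had every mandible library below, as did 11.5%.

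The calcium sensors of the endoplasmic reticulum gave nearly level values. Stim1 (ENSMUSG00000030987), the main sensor, on chromosome 7 from 102267806 to 102437319, was at 61.5 to 106 CPM in femur libraries against 89.5 to 96.5 CPM in mandible libraries. Its log2 fold change was 0.13, with a 95% interval of -0.45 to 0.71. Stim2 (ENSMUSG00000039156), which responds to smaller losses of stored calcium, on chromosome 5 from 53998499 to 54121057, was at 41.4 to 54.6 CPM in femur libraries against 40.3 to 56.1 CPM in mandible libraries. Its log2 fold change was 0.0088, with a 95% interval of -0.56 to 0.57. The groups overlapped for both sensors, and the intervals leave room for changes of less than 2-fold in either direction. Counted per kilobase of gene length, the ratio of Stim1 to Stim2 was 0.869 ± 0.118 in femur libraries against 0.974 ± 0.185 in mandible libraries (SD, n = 3), and the libraries overlapped.

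The genes of the ORAI pores lie on chromosome 5, Orai1 from 123015074 to 123030456 and Orai2 from 136147459 to 136170713. The antisense gene Gm2479 shares 7 exon bases with Orai1 and had 3 counts in S19 and none in the other libraries. Orai1 (ENSMUSG00000049686), which forms the main pore of store-operated entry, was at 25.8 ± 3.61 CPM in femur libraries against 24.9 ± 4.72 CPM in mandible libraries (SD, n = 3), a log2 fold change of -0.049 with a 95% interval of -0.71 to 0.61. Orai2 (ENSMUSG00000039747), whose product can join ORAI1 in the pore and lower its current, was at 52.5, 47.6 and 39.6 CPM in S13, S15 and S18 and at 38.6, 45.5 and 28.1 CPM in S16, S19 and S23. Its log2 fold change was -0.32, with a 95% interval of -0.93 to 0.29. It was the one entry gene with a value under 0 in all 16 alternatives, some of which reuse the same edgeR fit, although it passed the test in none of them. S23 was the lowest of the 6 libraries for both pore genes and for Stim2. Per kilobase, the ratio of Orai1 to Orai2 was 1.48 ± 0.263 in femur libraries against 1.78 ± 0.211 in mandible libraries (SD, n = 3), with overlapping libraries.

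The pump gene Atp2b1 (ENSMUSG00000019943), the widely used member of the plasma membrane calcium pumps, lies on chromosome 10 from 98914406 to 99026143 on the plus strand. Its level was 141 CPM in S13, 249 CPM in S15 and 186 CPM in S18, and 394 CPM in S16, 311 CPM in S19 and 249.7 CPM in S23. The groups were separated by less than 1 CPM, between S15 and S23. The mean was 192 ± 54.4 CPM in femur libraries against 318 ± 72.3 CPM in mandible libraries (SD, n = 3), a log2 fold change of 0.73 with a 95% interval of 0.055 to 1.40. With an unadjusted p of 0.036 in the edgeR fit it was nearest to the threshold among the 7 genes, but it did not pass after Benjamini-Hochberg adjustment (adjusted p = 0.26, and 0.082 to 0.98 over the alternatives). The value was 0.033 after removal of the trend with gene length in each library, and Atp2b1 is the longest of the 10 genes. Atp2b4 (ENSMUSG00000026463), another pump of the family, on chromosome 1 from 133699457 to 133801041, was at 54.1 to 96.3 CPM in femur libraries against 67.6 to 108 CPM in mandible libraries. Its log2 fold change was 0.12, with a 95% interval of -0.53 to 0.77. The microRNA gene Mir6903 shares 6 exon bases with Atp2b4 and had no read. For Stim1, Stim2, Orai1, Orai2 and Atp2b4 the edgeR fit gave Benjamini-Hochberg adjusted p-values of 0.68 to 0.99, and the sign of each except Orai2 turned in at least 1 alternative. Per kilobase, Atp2b1 stood at 1.18, 2.36 and 2.77 times the level of Atp2b4 in S13, S15 and S18, and at 2.92, 3.11 and 2.97 times in S16, S19 and S23. This ratio, which does not depend on the scaling of the libraries, was higher in each mandible library than in each femur library. S13 was the lowest, and S18 lay close to S16. The difference was not tested, and the ratios of Stim1 to Stim2 and of Orai1 to Orai2 overlapped between the groups.

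**Figure D2:**
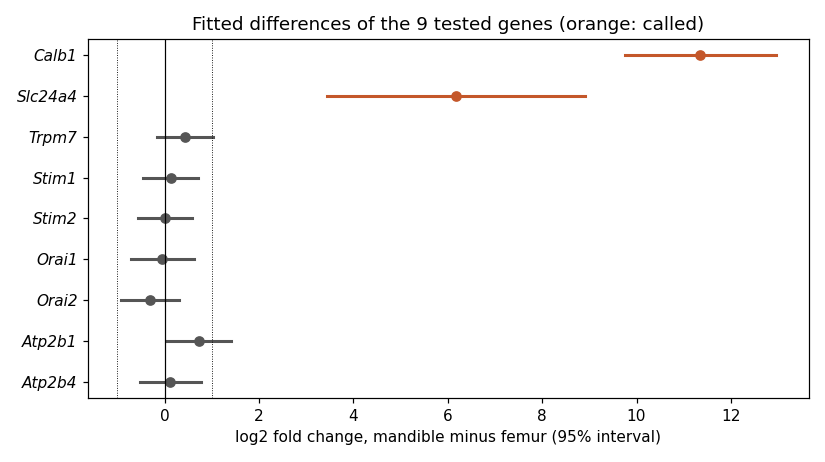
Log2 fold change of the 9 tested genes, mandible minus femur (horizontal axis), with the 95% interval from the edgeR fit as a line and dotted lines at a 2-fold change. Calb1 (11.35) and Slc24a4 (6.17) lie far to the right, and the 7 entry and pump genes lie between -0.32 and 0.73.

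In the 7 entry and pump genes together the median log2 fold change was 0.12, against -0.038 over all tested genes. This depended on the setting: with the length trend removed, the 7 values ran from -0.66 (Orai2) to 0.11 (Orai1), against a median of -0.17 over all tested genes. Their summed level was 568, 639 and 567 CPM in S13, S15 and S18 and 844, 748 and 692 CPM in S16, S19 and S23. The summed level of Calb1, S100g and Slc24a4 was 0, 0.507 and 0 CPM in the femur libraries and 121, 180 and 273 CPM in the mandible libraries. The ameloblast genes thus came to at most 0.0793% of the entry and pump sum in the femur, and they reached 14.3% in S16, 24.0% in S19 and 39.4% in S23. Nearly all of it was Calb1. No test is given for these sums, since the genes were chosen with earlier results of these data known.

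Levels of different genes can be compared per length. In the femur the order of means was Atp2b1 (12.6 CPM per kilobase), Orai1 (11.2), Trpm7 (10.1), Stim2 (9.40), Stim1 (8.27), Orai2 (7.67) and Atp2b4 (6.41 CPM per kilobase), followed by Slc24a4, Calb1 and S100g at or near 0. Each of the first 7 overlapped in range with its neighbour in this order, but genes farther apart did not always: in 5 of the 21 pairs the libraries were wholly apart, with Atp2b1 and Orai1 above both Orai2 and Atp2b4, and Stim2 above Atp2b4. Within each femur library Stim2 was also above Stim1 and Orai2 above Atp2b4. In the mandible 12 of the 21 pairs were apart. In the mandible Calb1 came first with 37.7 ± 15.7 CPM per kilobase, before Atp2b1 with 20.9 ± 4.75 CPM per kilobase (SD, n = 3). In S16 the level of Atp2b1 exceeded that of Calb1, so this pair also overlapped. Slc24a4, with 1.84 ± 0.206 CPM per kilobase (SD, n = 3), stood below all 7 entry and pump genes and above S100g without overlap. The lengths are those of all annotated exons of a gene, so a gene whose long exons are little used is set too low.

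**Figure D3:**
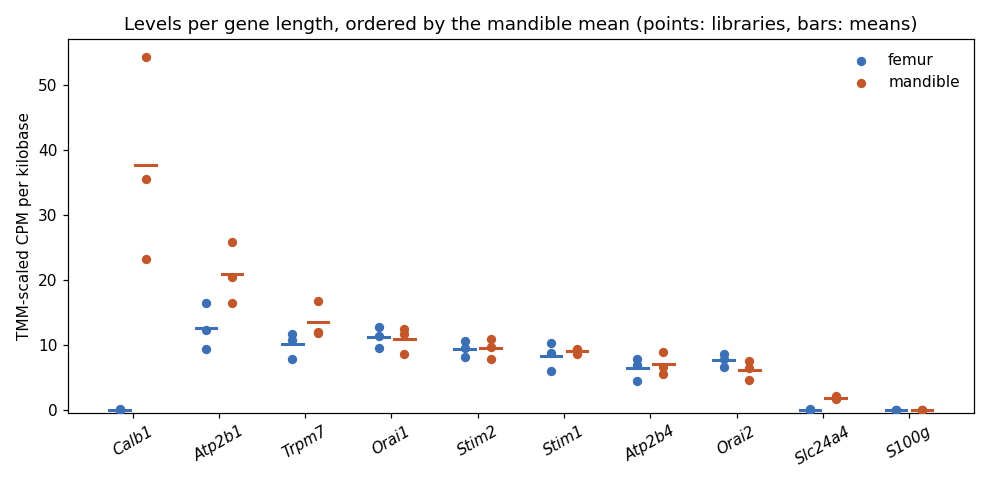
Level per kilobase of gene length (vertical axis, TMM-scaled CPM per kilobase) for each library as points, with the mean of each group as a short line and the genes ordered by their mandible mean. Calb1 is near 0 in femur libraries against 23.2 to 54.4 in mandible libraries, while the entry and pump genes lie between 4.42 and 25.9 in the 6 libraries.

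The mandible libraries also carried RNA of genes that mark other cells of the jaw. The summed levels of these lists were higher in the mandible than in the femur, as were Calb1 and Slc24a4. The order of the mandible libraries was not shared by all of them. The summed muscle markers were at 2525, 1162 and 3903 CPM in S16, S19 and S23, whereas Calb1 rose from S16 to S23. Of 10 ameloblast markers, 7 were called higher in the mandible, and the summed level of the list was 1.06 to 5.57 CPM in femur libraries against 5792 to 11405 CPM in mandible libraries. Odam had no read in the femur. Amelx, the gene of the main enamel matrix protein, had 2, 5 and 7 counts in S13, S15 and S18 and 60735, 76857 and 113109 counts in S16, S19 and S23. Per kilobase, Calb1 was at 0.763% of the Amelx level in S16, 0.975% in S19 and 0.840% in S23. Measured against Ambn, another enamel matrix gene, it was at 2.63%, 2.48% and 3.07%. Between the mandible libraries these ratios varied less than the level of Calb1 itself. No such ratio was taken to the other ameloblast markers or to markers of other cells, so the ratios do not single out ameloblasts. Enam, another marker of the list, was at 950, 826 and 1306 CPM in S16, S19 and S23, an order unlike that of Calb1. The summed markers of odontoblasts and osteoblasts rose in the same order as Calb1, with 7426, 8810 and 11349 CPM in S16, S19 and S23. Slc24a4 was at 0.0607%, 0.0448% and 0.0316% of Amelx per kilobase in S16, S19 and S23. For Slc24a4 this ratio varied more than its own level, which was 8.36, 7.41 and 9.27 CPM in these libraries. All 7 markers of skeletal muscle were also called higher, with a summed level of 3.14 to 18.2 CPM in femur libraries against 1162 to 3903 CPM in mandible libraries. Of 8 markers of odontoblasts and osteoblasts, 7 were called higher, with 99.2 to 136 CPM against 7426 to 11349 CPM, and of 7 oral epithelium markers, 2 (10.6 to 11.9 against 94.3 to 133 CPM). The part of these cells in the values of Calb1 and Slc24a4 was not tested.

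Markers of other marrow cells were called lower in the mandible or not called. Of 5 tested megakaryocyte and platelet markers 4 were called lower in the mandible (summed level 529 to 850 CPM in femur libraries against 72.0 to 104 CPM in mandible libraries), as were 4 of 6 erythroid markers (184 to 1200 against 62.0 to 117 CPM) and 1 of 8 neutrophil markers (S100a8, with the list at 3699 to 32641 against 3902 to 10320 CPM). Without S23 the calls were 4 for megakaryocytes and platelets, 2 for erythroid cells and 0 for neutrophils, without S15 they were 4, 5 and 4, and DESeq2 gave 5, 3 and 3. None of the tested endothelial (4), nerve and Schwann cell (3), B cell (5) or T and NK cell (6) markers was called by edgeR. At an unadjusted p under 0.05 in the edgeR fit there were 0, 1, 0 and 1 of them, against 2975 of all 18114 tested genes. DESeq2 called 1 nerve and Schwann cell marker higher and limma-voom none. Without S15, edgeR called 1 nerve and Schwann cell marker higher and 1 T and NK cell marker lower. The part of these lists in the values of the entry and pump genes was not tested.

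Among the 57 other genes of calcium and ion transport in 5 lists, 47 were tested and 5 were called higher in the mandible: Ryr1, Atp2a1, Cacna1s, Pvalb and Slc13a5. None was called lower by edgeR. At an unadjusted p under 0.05 edgeR had 12 of the 47 higher and 2 lower, against 2975 of all 18114 tested genes in either direction. DESeq2 called 8 higher and 1 lower and limma-voom 5 and 0. The gene lower by DESeq2 was Slc24a5, and limma-voom had Cacna1c in place of Cacna1s. Without S15 the counts were 11 higher and 1 lower, the latter being Car2. Among all 18114 tested genes, edgeR called 702 higher (3.88%) and 236 lower (1.3%), DESeq2 1099 and 448, and limma-voom 507 and 246. Without S15 edgeR called 957 higher and 608 lower among 18742 tested genes. Each of the 5 lists held 1 called gene. Their medians were 0.020 for store-operated entry and calcium release (12 tested), 0.59 for pumps and exchangers (12), 0.87 for epithelial and TRP entry (6), 0.059 for calcium binding proteins (8) and 0.26 for bicarbonate and pH transport (9) on the log2 scale, against -0.038 over all tested genes.

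Of the 5 called genes, 4 serve calcium handling in skeletal muscle. Ryr1, the calcium release channel of muscle, rose from 9.06 ± 2.55 to 73.0 ± 37.3 CPM (SD, n = 3), which the edgeR fit put at 3.01 on the log2 scale with a standard error of 0.42 (Benjamini-Hochberg adjusted p = 0.0016). Atp2a1, the calcium pump of fast muscle fibres, rose from 1.70 ± 1.20 to 262 ± 170 CPM (SD, n = 3), which the edgeR fit put at 7.27 on the log2 scale with a standard error of 0.74 (Benjamini-Hochberg adjusted p = 0.00026). Pvalb, a calcium buffer of fast fibres, had 1 femur count, in S15, and 2654 mandible counts, a ratio of 2831 with a 95% exact interval of 508 to 111878 for counting error. Cacna1s, the voltage sensor of muscle, had a log2 fold change of 4.38 (edgeR, Benjamini-Hochberg adjusted p = 0.023) and lost its call without S18, S19 or S23, by limma-voom, at an adjusted p under 0.01 and where 10 counts were asked of each library. All 4 were highest in S23 and lowest in S19 among the mandible libraries, as were the summed muscle markers and Slc13a5, whereas Calb1 was lowest in S16. The remaining gene, Slc13a5, encodes a citrate transporter of bone- and tooth-forming cells and was at 0.335 ± 0.404 CPM in femur libraries against 38.2 ± 13.5 CPM in mandible libraries (SD, n = 3), which the edgeR fit put at 6.80 on the log2 scale with a standard error of 0.85 (Benjamini-Hochberg adjusted p = 0.00080).

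**Figure D4:**
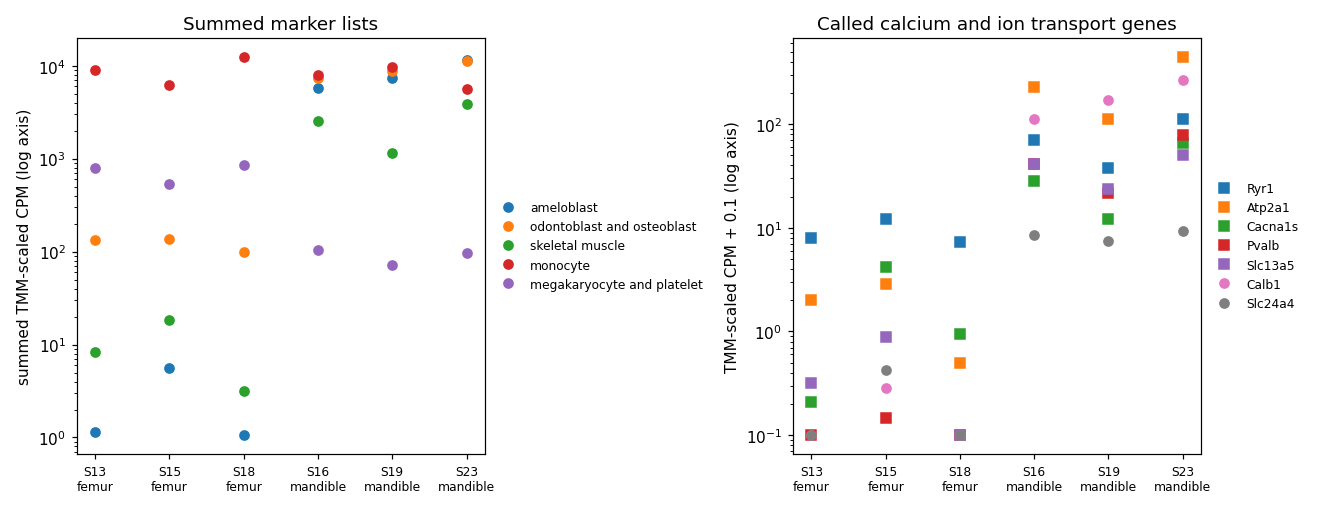
Left, summed level of 5 marker lists in each library (TMM-scaled CPM, log axis). Right, level of Calb1, Slc24a4 and the 5 called genes of the other lists (TMM-scaled CPM plus 0.1, log axis). Ameloblast markers sum to 1.06 to 5.57 CPM in femur libraries against 5792 to 11405 CPM in mandible libraries. Monocyte markers sum to 5673 to 12457 CPM in all libraries, most of it Lyz2.

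The 2 most abundant tested genes of each list did not pass the test in the edgeR fit of all 6 libraries, but Itpr1 was called higher by DESeq2 and without S15, and Car2 lower without S15, without a filter and where 10 counts were asked of each library. Itpr1, a calcium release channel of the endoplasmic reticulum, was at 226 ± 107 CPM in femur libraries against 449 ± 135 CPM in mandible libraries (SD, n = 3, log2 fold change 0.99), and Itpr2, of the same family, had a log2 fold change of 0.097. The reticular pumps Atp2a3 and Atp2a2 had log2 fold changes of -0.39 and 0.53. Calr and Canx, chaperones that bind calcium in the endoplasmic reticulum, had 0.10 and 0.48, and the pH regulating genes Car2 and Slc4a2 had -2.33 and 0.26. Car2 was uneven in the femur, with 8190 counts in S13 against 626 to 1988 in the other 5 libraries. In the epithelial and TRP list Cnnm4 and Cacna1d had 0.38 and 0.74. The epithelial entry channels Trpv5 and Trpv6 had 0 counts in 4 of 6 libraries and were not tested.

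The genes whose pattern lay nearest to that of Calb1, by the root mean square difference of log2 CPM centred on the mean of the 6 libraries, were Sfrp2 (0.27), Acta1 (0.55), Prss35 (0.70), Mb (0.88) and Des (0.95), of which Acta1, Mb and Des are genes of muscle fibres. Slc24a4 was 127th in this order, with a difference of 2.31. Nearest to Slc24a4 were Hspg2 (0.18), Kcnk1 (0.20), Bglap2 (0.27), Me1 (0.32) and Ccl21a (0.38). This measure is set largely by the size of the step between the sites, not by the order of the mandible libraries. Acta1, for example, had 18835, 10454 and 32559 counts in S16, S19 and S23, an order unlike that of Calb1. That all 10 of these genes were called higher in the mandible thus follows largely from how they were picked.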

How the data were processed

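RNA of 6 monocyte libraries, 3 per skeletal site, was analysed from a table of raw counts. After trimming in Trimmomatic, the authors aligned read pairs to GRCm38 by HISAT2 2.1.0, and the featureCounts output was deposited as raw counts per gene. The featureCounts version and its strand and multi-mapping settings are not given in the sources used here. The intervals in the table fell inside the GENCODE M21 gene for 3016 of 52029 shared genes and 1 of the 10 members, so positions were taken from M21 (GRCm38) by Ensembl identifier, and lengths from the table. The table has 57010 genes, of which 14785 had no count.

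The fit used edgeR 4.0.16 under R 4.3.3, with TMM, the quasi-likelihood F-test, a prior count of 0.125, no covariates and filterByExpr set to a count of 10 and a total of 15, at a Benjamini-Hochberg adjusted p under 0.05 over all 18114 tested genes and a fold change of at least 2. Standard errors and 95% intervals were derived from the F statistic. Single genes were also compared on log2 CPM by exact permutation (two-sided), which cannot give a p below 0.1 with 3 against 3 libraries, and which gave 0.1 for the 4 genes without overlap. A count of 0 was taken to allow 3 counts, which covers counting error alone, and no sample column was left unused. The alternatives were DESeq2 1.42.0, limma-voom (limma 3.58.1), other normalizations, filters and thresholds, a prior count of 2, removal of each library's loess trend (span 0.4) with gene length, and each library left out in turn.

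The members and gene lists were chosen with earlier results of these data known. The named genes were all 10 members, the called and the 2 most abundant tested genes of each list (with Amelx, Ambn, Csf1r, Ccr2, Xist, Ddx3y and markers that moved with a member), and for Calb1 and Slc24a4 the 5 genes of nearest pattern. S100g was not tested and has no such list. Odam, Slc8a3, Slc24a5, Cacna1c, Trpv5, Trpv6 and the other ameloblast markers named were chosen after their values were seen.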

Additional observations from a re-analysis of the deposited data

How the results depend on the processing

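The number of the 10 genes called higher in the mandible was 2 in most alternatives, 0 where a count of 10 or more was asked of each library (there Calb1 and Slc24a4 are removed by construction), 1 at an adjusted p under 0.01 (Calb1), and 1 to 2 when a library was left out, with 1 without mandible S19. None was called lower in any alternative. Over all tested genes, 702 were called higher and 236 lower, against 1099 and 448 by DESeq2, 1019 and 571 without a filter, 384 and 61 at an adjusted p under 0.01, 376 to 957 and 58 to 608 with each library left out, and 127 lower with the length trend removed and 157 lower without normalization factors. The log2 fold change of Calb1 ran from 10.13 with a prior count of 2 to 14.81 without femur S15, and that of Slc24a4 from 5.34 to 10.36 under the same settings. These fitted values depend on the prior count, since the femur has almost no reads. Removing the length trend gave -0.27 for Trpm7, -0.61 for Stim1, -0.31 for Stim2, 0.11 for Orai1 and -0.54 for Atp2b4, all with the sign reversed and none called, and the cause was not tested. This setting moved the median of all genes from -0.038 to -0.17. Orai1 was 0.057 without normalization factors, and Stim2 was -0.035 without a filter. With each library left out, Stim1 ran from -0.11 to 0.31, Stim2 from -0.16 to 0.11, Orai1 from -0.20 to 0.056 and Atp2b4 from -0.082 to 0.30. The ratio of the ameloblast to the other genes does not depend on the TMM factors. The count of other calcium and ion transport genes called, examined under the alternatives after the data were seen, was 2 to 11 higher and 0 to 2 lower. No paired analysis was possible because the labels do not tie libraries to animals. Depth limits S100g in particular, and genes under 3 counts in general.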

Other observations

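The ameloblast markers differed in CPM between each other in the mandible libraries. These values are not divided by gene length, the genes were chosen after their values were seen, and no test compares them. Enam, which encodes an enamel matrix protein, was at 1028 ± 249 CPM and the protease gene Mmp20 at 83.7 ± 33.8 CPM (SD, n = 3). Amtn was at 21.5 ± 7.79 CPM, Odam at 10.1 ± 7.17 CPM and the protease gene Klk4 at 3.53 ± 1.94 CPM (SD, n = 3), and Klk4 was not called (edgeR, Benjamini-Hochberg adjusted p = 0.078). Wdr72 had 0, 33 and 21 counts in S16, S19 and S23 and 15 in femur S15. Slc24a4, at 7.41 to 9.27 CPM, varied less between S16, S19 and S23 than Odam, which was at 1.85, 13.9 and 14.6 CPM.

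Among the other sodium-calcium exchanger genes, Slc8a1 (705 to 1612 counts), Slc8b1 (671 to 1986 counts) and Slc24a3 (157 to 403 counts) were read in every library and were not called. Slc24a5 and Slc8a3 were picked after their values were seen. Slc24a5, known from pigment cells, had 57, 51 and 80 counts in S13, S15 and S18 and 0, 3 and 0 in S16, S19 and S23, with a log2 fold change of -5.77 that did not pass the test (edgeR, Benjamini-Hochberg adjusted p = 0.075) but was called lower by DESeq2 and without a filter. Slc8a3, a sodium-calcium exchanger of muscle and nerve, had 0, 12 and 0 counts in the femur and 37, 74 and 308 in the mandible (edgeR, Benjamini-Hochberg adjusted p = 0.073), and was called higher by DESeq2, without a filter, without S15 and with the length trend removed.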
